A study of Homo sapiens with 4 samples.

Results

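Transcripts of 10 genes of the canonical Wnt pathway were read in the FLO-1 model of esophageal adenocarcinoma (EAC). They comprise the TCF/LEF factors *LEF1*, *TCF7* and *TCF7L2*, the scaffolds *AXIN1* and *AXIN2*, the feedback genes *NKD1*, *RNF43* and *ZNRF3*, and the further β-catenin targets *LGR5* and *SP5*. Each was found through its Ensembl identifier, and together they make 10 of the 63677 genes in the count files. The question addressed was whether transcripts that report on β-catenin activity differed once E-cadherin expression had fallen.

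FLO-1 parental is an established human EAC cell line, and FLO-1LM is its subline, cultured from a metastatic deposit in the liver after serial passage through immunodeficient NSG mice. The labels name no introduced gene and no treatment for either line, and both were collected at 80% confluency, 24 hours after the medium was changed. There were 2 RNAseq libraries per line, and nothing states whether those of a line came from separate cultures, so the p-values measure only the spread between these libraries, which may be technical. No batch or date was given, and the subline, its passage through mice and any batch cannot be told apart.

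In the canonical Wnt pathway a secreted Wnt ligand binds a Frizzled receptor and an LRP co-receptor at the cell surface. Without ligand, a complex built on axin and APC marks β-catenin for degradation, and with ligand that complex is held back, so that β-catenin reaches the nucleus and binds TCF/LEF factors on DNA. Axin 2, NKD1, RNF43 and ZNRF3 are themselves induced by this signal and dampen it, which is why their transcripts serve as readouts in the gut epithelium and its tumors. β-catenin also binds the cytoplasmic tail of E-cadherin at cell junctions.

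The 3 sequences shown are the 250 bases upstream of a transcription start, taken from the RefSeq promoter table of GRCh38.p14 and located in GRCh37 by an exact match. *SP5* is shown because its window was the only one among the 10 windows of the 6 matched genes (*AXIN1*, *LEF1*, *TCF7*, *TCF7L2*, *RNF43* and *SP5*) that held the TCF/LEF core letters CTTTGAA or CTTTGAT on either strand. *AXIN1* and *TCF7L2* are shown as the members with the highest transcript levels. Capitals mark the motif letters, read on the strand of the gene. The *SP5* stretch is chr2:171571597-171571846 on the plus strand, *AXIN1* is chr16:402724-402973 on the minus strand, and *TCF7L2* is chr10:114709756-114710005 on the plus strand.
SP5: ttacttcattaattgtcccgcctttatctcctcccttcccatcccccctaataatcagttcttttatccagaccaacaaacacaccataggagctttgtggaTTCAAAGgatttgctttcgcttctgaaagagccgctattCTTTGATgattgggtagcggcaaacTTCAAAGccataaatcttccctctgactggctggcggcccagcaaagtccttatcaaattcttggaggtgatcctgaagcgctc
AXIN1: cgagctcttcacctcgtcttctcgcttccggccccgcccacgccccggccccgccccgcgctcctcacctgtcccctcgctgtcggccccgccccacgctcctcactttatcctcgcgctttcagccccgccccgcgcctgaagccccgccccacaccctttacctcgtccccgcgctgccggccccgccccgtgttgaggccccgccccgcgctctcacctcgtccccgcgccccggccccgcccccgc
TCF7L2: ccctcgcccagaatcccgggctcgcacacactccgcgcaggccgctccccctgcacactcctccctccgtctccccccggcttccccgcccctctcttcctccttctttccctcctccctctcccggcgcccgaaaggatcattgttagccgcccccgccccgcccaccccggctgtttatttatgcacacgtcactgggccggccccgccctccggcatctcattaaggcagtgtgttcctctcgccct

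The *SP5* stretch held the motif 3 times. It lay at 148 bases before the start as TTCAAAG, which is CTTTGAA on the opposite strand, at 109 bases before as CTTTGAT, and at 84 bases before again as TTCAAAG. Of all 35116 RefSeq windows of 300 bases (250 before to 50 after the start), 6.86% held at least 1 such motif and 0.026%, 9 windows, held 3 or more. The *SP5* stretch had a GC content of 45.6%, against 77.6% for *AXIN1* and 68.0% for *TCF7L2*. A match of letters is a description of the sequence and not a binding site.

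Libraries held 19060310 to 25920336 counts on genes. *CDH1*, which encodes E-cadherin, had 16.4 and 19.9 CPM (the counts of a gene relative to the TMM-scaled total of its library) in FLO-1LM and 85.9 and 82.6 CPM in parental cells, a log2 fold change of −2.21 (SE 0.109, edgeR adjusted p = 1.12e-09). Its partner *CTNNB1*, the β-catenin gene, had 375 and 391 CPM in FLO-1LM and 375 and 372 CPM in parental cells, with a log2 fold change of 0.037 (SE 0.070, edgeR adjusted p = 0.898). The simple epithelial keratins *KRT8*, *KRT18* and *KRT19* were present in every library, while *EPCAM* was under 1 CPM throughout. The 4 epithelial markers summed to 462 to 479 CPM in FLO-1LM and 759 to 775 CPM in parental cells. Defining markers of the liver were absent from the human counts, with *ALB*, *APOB*, *TTR* and *FGB* at 0 in all libraries. The 7 hepatocyte markers summed to 13.5 to 14.8 CPM in FLO-1LM and 16.4 to 18.1 CPM in parental cells, nearly all from *SERPINA1*. Fibroblast markers (7 genes, mostly *COL1A1*) summed to 12.5 to 14.4 and 10.95 to 13.8 CPM in the respective lines. The 6 leukocyte markers summed to at most 1.17 CPM in any library, with *PTPRC* at 0, and the 3 endothelial markers to at most 0.313 CPM. Reads were counted on human genes only, and FLO-1LM was cultured from a mouse liver. Any host cells carried over would be mouse cells, so these markers cannot test for them.

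None of the members that could be tested was called differentially expressed between FLO-1LM and parental cells. The low-count filter kept 7 of the 10, and *LEF1*, *LGR5* and *SP5* were not tested. Of the 7, 0 passed an adjusted p of 0.05 in edgeR's quasi-likelihood test, beside 382 of 17143 genes tested (2.23%). At an unadjusted p below 0.05 the count was also 0 of 7, beside 12.4% of all genes. The count was also 0 in DESeq2, which called 1.61% of all genes, and in limma voom, which called 2.15% with TMM factors and 2.37% without scaling factors. It stayed at 0 in edgeR with RLE factors (2.21% of all genes called), library totals only (2.41%), no low-count filter (2.2%), at least 10 counts in every library (1.74%) and the mitochondrial genes left out (2.24%). Of the 7 log2 fold changes, 6 were below 0 and 1 was above, with a median of −0.11, but those of *TCF7*, *TCF7L2*, *ZNRF3* and *NKD1* changed sign when 1 library was left out. In comparison, all genes tested had a median of 0.0016. The median size of the change was 0.144 for the 7 genes and 0.137 for all genes tested. CPM of the lines did not overlap for 2 of the 7, *AXIN1* and *RNF43*, against 42.6% of all genes tested. In bulk RNA, fewer cells that express a gene and less RNA per cell cannot be told apart.

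**Figure D1:**
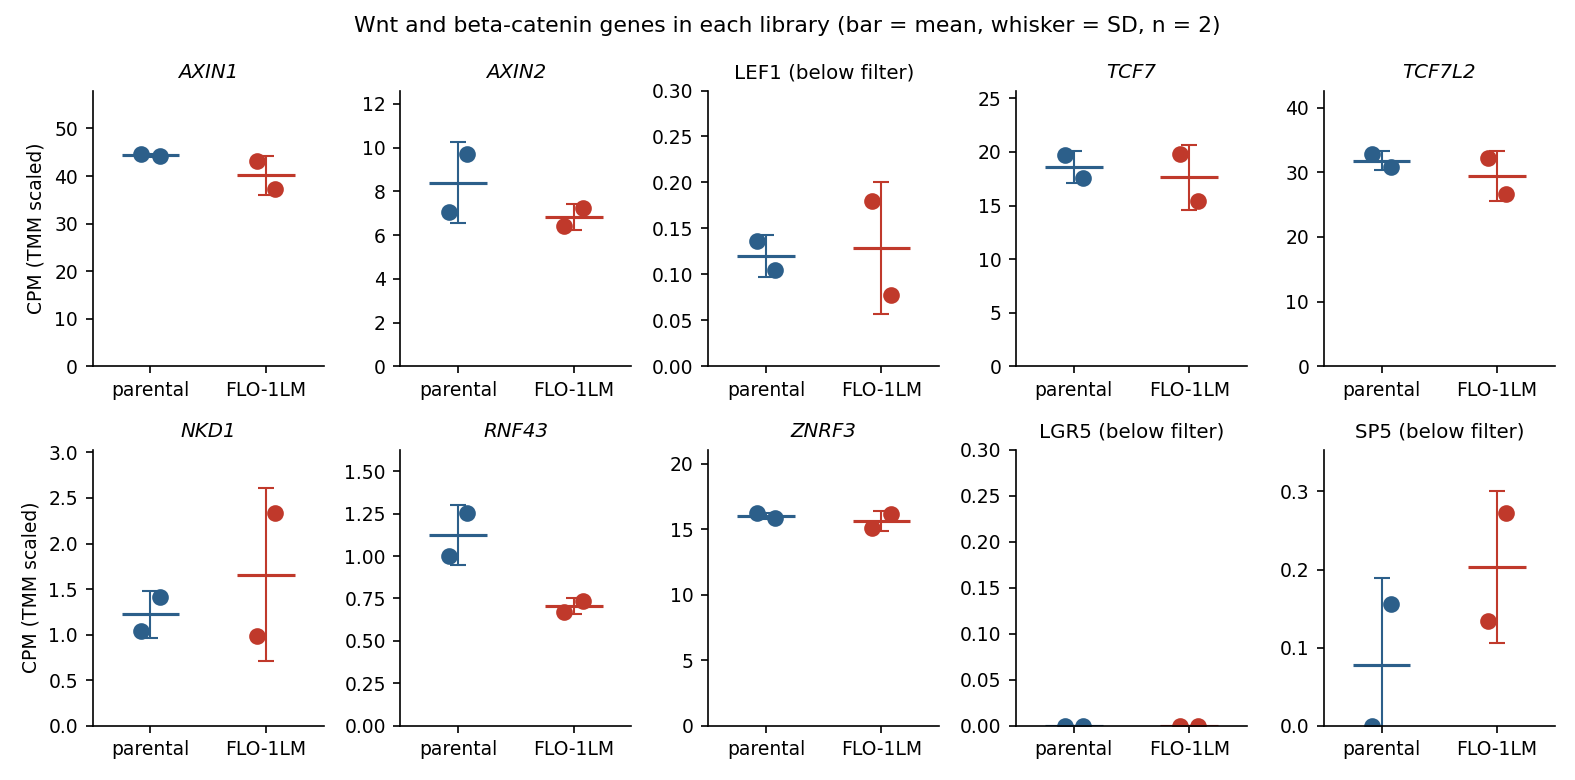
CPM of the 10 genes in each library, 1 panel per gene with its own axis from 0; points are libraries and bars are the mean of the 2 libraries of a line. Libraries of the lines lie in the same range for most genes, *AXIN1* and *RNF43* are the tested genes whose lines are apart, and *LGR5* sits at 0 in all 4 libraries.

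Among the TCF/LEF factors, *TCF7L2* (TCF4, chromosome 10, 114710006 to 114927437 in GRCh37, plus strand, ENSG00000148737) is the factor through which β-catenin acts in the intestinal epithelium. It had 32.1 and 26.7 CPM in the FLO-1LM libraries and 32.8 and 30.8 CPM in the parental libraries. FLO-1LM replicate 2 was the low library and the lines overlapped. Its log2 fold change was −0.11 (SE 0.121, 95% interval −0.37 to 0.14, edgeR adjusted p = 0.796).

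*TCF7* (TCF1, chromosome 5, 133450372 to 133487556, plus strand, ENSG00000081059) encodes a factor that is also made in short forms that cannot bind β-catenin, and gene counts do not separate these forms. It had 19.8 and 15.5 CPM in FLO-1LM and 19.7 and 17.6 CPM in parental cells. The lowest and the highest library were both FLO-1LM. FLO-1LM against parental cells gave a log2 fold change of −0.084 (SE 0.154, 95% interval −0.41 to 0.24, edgeR adjusted p = 0.895). Exons of *SKP1*, on the opposite strand, share 210 of the 10093 exon bases of *TCF7*, and *SKP1* had 2266 to 3041 counts per library. The counting strand is not given in the sources used here, and in an unstranded count the reads of that stretch could not be assigned to either gene.

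*LEF1* (chromosome 4, 108968701 to 109090112, minus strand, ENSG00000138795), a factor that is itself induced by Wnt signals in colorectal tumors, was almost without reads. It had 4 and 2 counts in FLO-1LM and 3 and 2 counts in parental cells, 11 in all, and was not tested. For a gene at 0, such as *LGR5*, up to 3 counts remain possible, which is 0.116 to 0.157 CPM of the unscaled library totals. *LEF1* was not at 0 but lay near this floor, at 0.078 to 0.180 CPM. No difference was detectable at this depth, and these limits cover counting error only.

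Set per merged exon length, the TCF/LEF family was read mainly from *TCF7L1* and *TCF7L2*. Levels per length are given as TPM, computed here by dividing counts by the merged exon length of each gene and scaling each library to the same sum. *TCF7L1* (TCF3), a family factor best known for repression, held 42.2% and 41.9% of the summed TCF/LEF level in FLO-1LM and 47.2% and 46.2% in parental cells. For *TCF7L2* the shares were 40.8% and 41.8% in FLO-1LM and 37.6% and 38.8% in parental cells. *TCF7* held 16.8% and 16.2% in FLO-1LM and 15.1% and 14.8% in parental cells, and *LEF1* at most 0.286% in any library. All 3 abundant factors had shares that did not overlap between the lines, although the CPM of *TCF7* and *TCF7L2* did overlap. Among all genes tested, 42.6% did not overlap in CPM, a rate for single genes, and no such rate was computed for shares. The shares sum to 100%, so that a lower share of one factor raises the others, and with 2 libraries per line no exact test of a share can pass 0.05. The summed level was 31.3 ± 4.5 TPM in FLO-1LM and 38.6 ± 3.6 TPM in parental cells (SD, n = 2 each).

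With coding length in place of exon length, *TCF7L1* held 32.65% in FLO-1LM and 36.998% in parental cells, beside *TCF7L2* at 38.8% and 36.6%, so that in FLO-1LM the order of these factors depended on the length used, and in parental cells the mean of *TCF7L1* was the higher with either length, although with coding length *TCF7L2* was the higher in parental replicate 2 (37.2% against 36.6%). The mean share of *TCF7* was 28.3% in FLO-1LM and 26.2% in parental cells with coding length, against 16.5% and 14.9% with exon length. How small a part *TCF7* held thus also depended on the length used. In the count test *TCF7L1* had 21.9 and 17.6 CPM in FLO-1LM and 27.1 and 24.1 CPM in parental cells. Its log2 fold change of −0.38 (SE 0.139, unadjusted p = 0.0139) did not pass the threshold, with an edgeR adjusted p = 0.229.

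**Figure D2:**
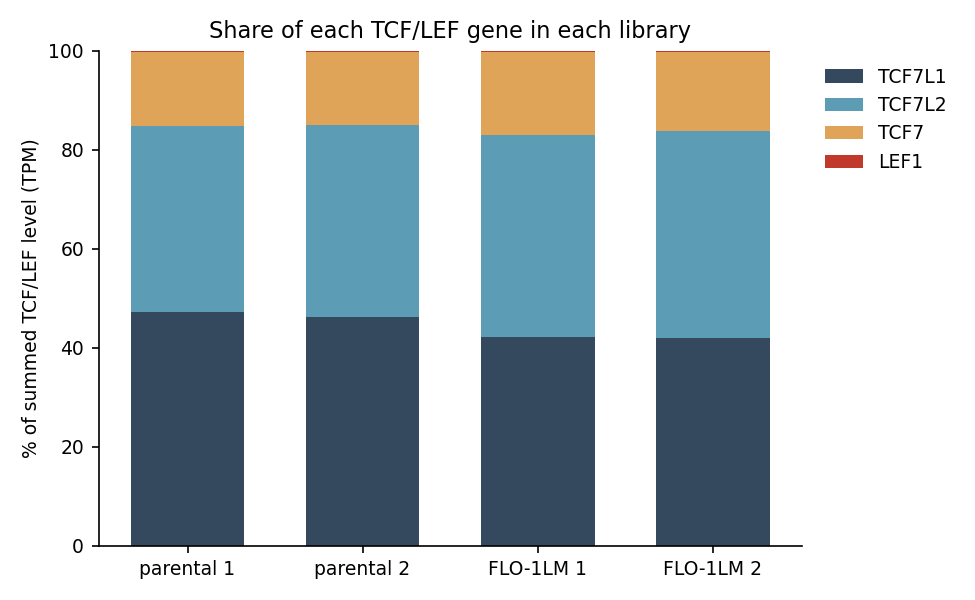
Share of the summed TCF/LEF transcript level (TPM by merged exon length, percent) held by each factor, 1 stacked bar per library. *TCF7L1* takes 41.9% to 42.2% in FLO-1LM and 46.2% to 47.2% in parental cells. The shares of *TCF7L2* (40.8% to 41.8% against 37.6% to 38.8%) and *TCF7* (16.2% to 16.8% against 14.8% to 15.1%) are higher in FLO-1LM. *LEF1* is a sliver of at most 0.286%.

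The scaffolds of the destruction complex were the most and a moderately expressed member. *AXIN1* (chromosome 16, 337440 to 402723, minus strand, ENSG00000103126) encodes the constitutive scaffold. It had 43.1 and 37.3 CPM in FLO-1LM and 44.6 and 44.1 CPM in parental cells, so both FLO-1LM libraries were lower. The gap between the FLO-1LM libraries was wider than that between the means of the lines, 40.2 ± 4.10 and 44.4 ± 0.332 CPM (SD, n = 2 each). Its log2 fold change was −0.14 (SE 0.104, 95% interval −0.36 to 0.076, edgeR adjusted p = 0.652).

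*AXIN2* (chromosome 17, 63524681 to 63557766, minus strand, ENSG00000168646) is the axin induced by β-catenin and the most used transcript readout of the pathway. It had 6.42 and 7.26 CPM in FLO-1LM, from 143 and 187 counts, and 7.08 and 9.70 CPM in parental cells, from 156 and 186 counts. FLO-1LM replicate 2 lay above parental replicate 1, so the lines overlapped. For the lines this gave a log2 fold change of −0.29 (SE 0.216, 95% interval −0.74 to 0.17, edgeR adjusted p = 0.666). Another gene on the same strand, ENSG00000266076, shares 1316 of the 5197 exon bases of *AXIN2* and had 0 counts in every library. Reads of that stretch may have been assigned to neither gene, so the level of *AXIN2* per length may be too low.

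Per length, *AXIN2* stood at 21.6% and 28.3% of the level of *AXIN1* in FLO-1LM and at 23.0% and 31.9% in parental cells. The ratio differed more between libraries of a line than between the means of the lines, 24.9 ± 4.7% and 27.5 ± 6.3% (SD, n = 2 each). Relative to *CTNNB1*, *AXIN2* stood at 3.87% and 4.21% in FLO-1LM and at 4.27% and 5.90% in parental cells.

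The feedback genes at the membrane and in the cytoplasm differed in level. *ZNRF3* (chromosome 22, 29279560 to 29453476, plus strand, ENSG00000183579) encodes a membrane ubiquitin ligase that removes Frizzled receptors. It had 15.1 and 16.2 CPM in FLO-1LM and 16.2 and 15.9 CPM in parental cells. The lines overlapped, and the change was the smallest among the tested members, with a log2 fold change of −0.036 (SE 0.149, 95% interval −0.35 to 0.28, edgeR adjusted p = 0.960).

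*RNF43* (chromosome 17, 56431037 to 56494956, minus strand, ENSG00000108375) encodes the paralogous ligase and was scarce. It had 15 and 19 counts in FLO-1LM, or 0.673 and 0.738 CPM, and 22 and 24 counts in parental cells, or 0.998 and 1.252 CPM. Both FLO-1LM libraries were lower than both parental libraries. The log2 fold change of −0.66 had an SE of 0.587 and a 95% interval of −1.90 to 0.57 (edgeR adjusted p = 0.735), so a 2-fold fall and a small rise both lay inside it. An antisense gene, *TSPOAP1-AS1*, shares 345 of the 6329 exon bases of *RNF43*. It had 13 and 10 counts in FLO-1LM and 27 and 17 counts in parental cells, and without a known counting strand its reads in the shared stretch cannot be told apart from those of *RNF43*. Per length, *RNF43* stood at 4.93% and 5.04% of *ZNRF3* in FLO-1LM and at 6.81% and 8.72% in parental cells.

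*NKD1* (chromosome 16, 50582307 to 50683160, plus strand, ENSG00000140807) encodes a protein that binds Dishevelled and restrains the pathway. It had 22 and 60 counts in FLO-1LM, or 0.987 and 2.33 CPM, and 23 and 27 counts in parental cells, or 1.04 and 1.41 CPM. FLO-1LM replicate 2 was the highest library and FLO-1LM replicate 1 the lowest. The log2 fold change was 0.45 (SE 0.516, 95% interval −0.63 to 1.53, edgeR adjusted p = 0.813), and without FLO-1LM replicate 2 it was −0.30 (edgeR adjusted p = 0.839).

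*LGR5* (chromosome 12, 71833578 to 71980090, plus strand, ENSG00000139292), the R-spondin receptor that marks intestinal stem cells, had 0 of 89377277 counts over the 4 libraries. *SP5* (chromosome 2, 171571847 to 171574588, plus strand, ENSG00000204335), a zinc finger repressor induced by β-catenin whose upstream stretch held the 3 motifs, had 3 and 7 counts in FLO-1LM and 0 and 3 in parental cells. The lines overlapped, 13 counts in all were too few for a test, and no difference was detectable at this depth.

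In the fit of all 4 libraries the 95% interval of 5 of the 7 tested genes lay within a 2-fold change in either direction. *NKD1* and *RNF43* were the exceptions. *AXIN2* moved with the library left out, to −0.50 (SE 0.283) without FLO-1 parental replicate 1 and to −0.049 without FLO-1 parental replicate 2. A p that misses the threshold does not show that the lines are alike, and the intervals give what sizes of change these libraries leave possible.

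**Figure D3:**
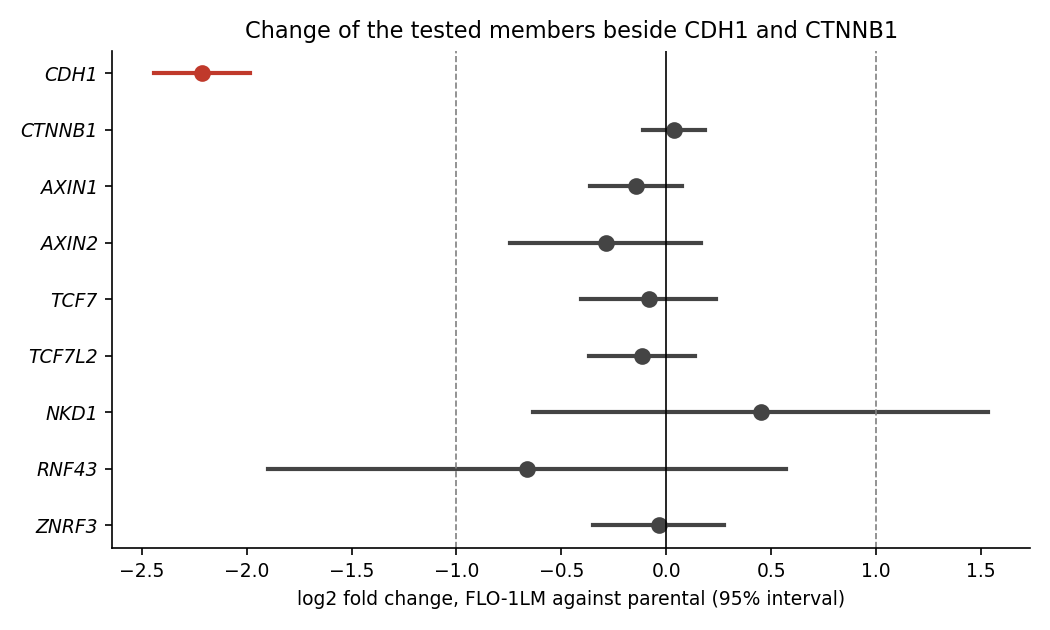
Log2 fold change of FLO-1LM against parental cells for the 7 tested genes beside *CDH1* and *CTNNB1*. Points are the edgeR estimate and bars its 95% interval. Red marks an edgeR adjusted p below 0.05, here *CDH1* alone, and dashed lines mark a 2-fold change. The intervals of all 7 tested genes cross 0, and those of *NKD1* (−0.63 to 1.53) and *RNF43* (−1.90 to 0.57) are the widest. That of *CDH1* (−2.44 to −1.98) does not cross 0.

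Ordered by mean level per length over the 4 libraries, the genes ran from *AXIN1* at 17.1 TPM and *TCF7L2* at 13.8 TPM to *ZNRF3* at 6.89, *TCF7* at 5.47 and *AXIN2* at 4.46 TPM. *RNF43* at 0.442, *NKD1* at 0.252, *SP5* at 0.203 and *LEF1* at 0.071 TPM followed, and *LGR5* was at 0. The ranges over the libraries overlapped for *AXIN1* (14.7 to 18.8 TPM) and *TCF7L2* (11.8 to 15.5 TPM), although *AXIN1* was the higher within each library, and for *TCF7* (4.55 to 6.20 TPM) and *AXIN2* (3.64 to 5.72 TPM). *ZNRF3*, at 6.36 to 7.36 TPM, did not overlap *TCF7*. In the lower part of the order, *RNF43* (0.314 to 0.606 TPM) overlapped *NKD1* (0.168 to 0.399 TPM), *NKD1* overlapped *SP5* (0 to 0.389 TPM), and *SP5* overlapped *LEF1* (0.043 to 0.099 TPM). By exon length the next level below *AXIN2*, that of *RNF43*, did not exceed 0.606 TPM in any library. The 5 upper genes were above 52.0% to 70.3% of the genes that had a count. With coding length in place of exon length, *TCF7* (13.5 TPM) moved above *ZNRF3* (7.62 TPM) and *NKD1* (1.38 TPM) above *RNF43* (0.468 TPM). *AXIN2* was then at 4.07 TPM, so the step below it was smaller than by exon length.

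The other genes of the pathway were read from 8 lists by role, 102 genes in all, of which 12 had no count in any library and 75 were tested. In edgeR 0 of the 75 were higher in FLO-1LM, beside 0.402% of all genes, and 4 were lower, 5.33% beside 1.83% of all genes. At an unadjusted p below 0.05 there were 13 of 75 (17.3%), beside 12.4% of all genes. The median log2 fold change was −0.021. The 4 lower genes were *FZD4* and *ROR1* among the receptors and *BAMBI* and *FGF18* among the further targets.

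*BAMBI*, a β-catenin target that encodes a decoy receptor of TGF-β signaling, had 50.9 and 47.8 CPM in FLO-1LM and 66.8 and 71.3 CPM in parental cells. The log2 fold change was −0.49 (SE 0.092, edgeR adjusted p = 0.00664). *FGF18*, a secreted growth factor, had 3.82 and 2.84 CPM in FLO-1LM and 9.21 and 6.99 CPM in parental cells. It showed the largest change of the 75 genes, a log2 fold change of −1.29 (SE 0.253, edgeR adjusted p = 0.00846). The lines did not overlap for either gene, nor did they for 42.6% of all genes tested. This adds nothing to the calls, which came from the same libraries.

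*FZD4*, a Frizzled receptor, had 54.3 and 60.1 CPM in FLO-1LM and 72.5 and 74.5 CPM in parental cells, with a log2 fold change of −0.36 (SE 0.091, edgeR adjusted p = 0.0422). *ROR1*, a receptor of noncanonical Wnt signals, had 41.5 and 45.2 CPM in FLO-1LM and 56.6 and 57.7 CPM in parental cells, with a log2 fold change of −0.40 (SE 0.096, edgeR adjusted p = 0.0330). The lines did not overlap for these receptors, which again adds nothing to calls made on the same libraries. Their calls were lost in DESeq2, with an adjusted p of 0.0759 for *FZD4* and 0.0693 for *ROR1*. None of the 4 was called without FLO-1 parental replicate 1, where 0.566% of all genes were called, and without FLO-1 parental replicate 2 only *FGF18* was (edgeR adjusted p = 0.0333), where 0.636% were called. Without FLO-1LM replicate 1 there were 8 pathway genes called, beside 6.39% of all genes. They were the same 4 with *CD44* and *TCF7L1* lower and *MYC* and *PORCN* higher in FLO-1LM. Without FLO-1LM replicate 2 there were 5, the same 4 with *MYC* higher, beside 6.33%, and *MYC* was also called higher with no low-count filter. *MYC*, a growth-promoting transcription factor, had 91.2 and 95.7 CPM in FLO-1LM and 68.8 and 80.6 CPM in parental cells. Its log2 fold change with all 4 libraries and the filter was 0.32 (SE 0.091, edgeR adjusted p = 0.0786). *MYC* and *CD44*, a surface receptor, are named after their values were seen. No member was called in any of these 4 fits. The summed level of the simple epithelial markers given above was lower in the same libraries, and its part in these changes was not tested.

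**Figure D4:**
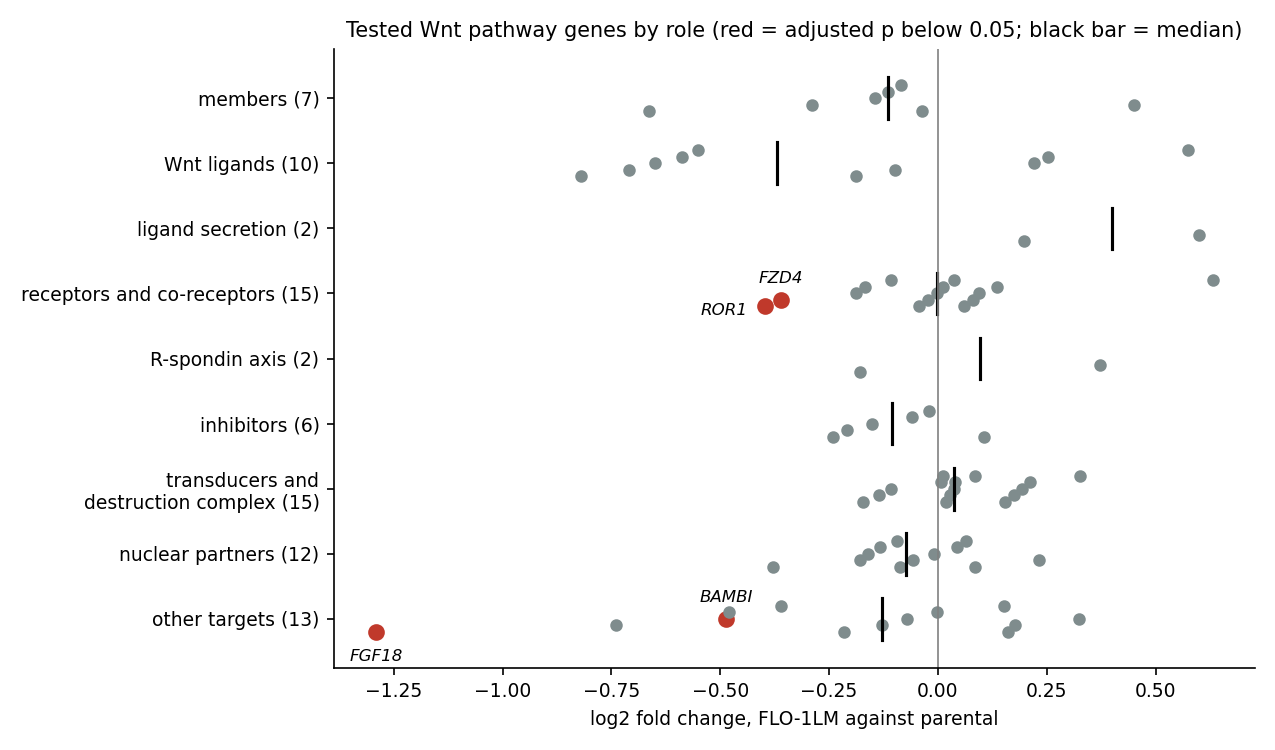
Log2 fold change of FLO-1LM against parental cells for each tested gene of the pathway by role, with the number tested in parentheses, black bars for list medians and red points for genes with an edgeR adjusted p below 0.05. Red points are *FZD4*, *ROR1*, *BAMBI* and *FGF18*, all to the left of 0, and none of the 7 tested members is red.

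Of the 19 Wnt ligand genes, 10 were tested and 0 called, with a median log2 fold change of −0.37 and 7 of 10 values below 0. *WNT10A* had both the highest level per length of the ligands, 9.99 TPM, and the smallest p. It had 8.03 and 7.46 CPM in FLO-1LM and 11.02 and 11.7 CPM in parental cells, a log2 fold change of −0.55 (SE 0.185, edgeR adjusted p = 0.171). For ligand secretion, the acyltransferase *PORCN* had a log2 fold change of 0.60 (SE 0.227, edgeR adjusted p = 0.250) and the carrier *WLS* 0.20 (SE 0.202, edgeR adjusted p = 0.784), and 0 of these 2 was called.

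Receptors and co-receptors numbered 15 tested of 16, with 2 lower (13.3%, beside 1.83% of all genes), 0 higher and a median of −0.0020. The pseudokinase co-receptor *PTK7* was the most abundant per length at 95.8 TPM, with a log2 fold change of 0.060. In the R-spondin axis 2 of 6 genes were tested and 0 called. They were the ligand *RSPO1* (4.76 TPM, log2 fold change −0.18) and the receptor *LGR4*, a paralog of *LGR5*, which had 6.82 and 6.76 CPM in FLO-1LM and 5.67 and 4.80 CPM in parental cells. *LGR4* had a log2 fold change of 0.37 (SE 0.226, edgeR adjusted p = 0.556). The other paralog, *LGR6*, had 3 to 6 counts per library and was not tested.

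Secreted or surface inhibitors were tested for 6 of 14 genes, 0 of them called, with a median of −0.11. *KREMEN2*, a receptor for Dickkopf proteins, had the highest level, 60.2 TPM, and the smallest p, with a log2 fold change of −0.24 (SE 0.097, edgeR adjusted p = 0.291). All 15 genes of the destruction complex and the cytoplasmic transducers were tested, 0 were called and the median was 0.037. In this list *DVL2* had the smallest p, with a log2 fold change of 0.19 (SE 0.092, edgeR adjusted p = 0.403), and its paralog *DVL1* the highest level, 117 TPM.

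The 12 nuclear partners and co-repressors were all tested and 0 were called, with a median of −0.072 and the lowest p for *TCF7L1*. The highest level was that of *AES* at 105 TPM, with a log2 fold change of 0.043. Further targets of β-catenin were tested for 13 of 18 genes, with 2 lower (15.4%, beside 1.83% of all genes), 0 higher and a median of −0.13. *CCND1*, the cyclin D1 gene, was the most abundant at 167 TPM. It had 247 and 251 CPM in FLO-1LM and 276 and 268 CPM in parental cells, a log2 fold change of −0.13 (SE 0.071, edgeR adjusted p = 0.502).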

How the data were processed

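Total RNA of the 4 samples was made into directional libraries and sequenced on an Illumina NextSeq 500. Per the labels, bcl2fastq 2.17 and Trimmomatic 0.30 were used, and reads were mapped to GRCh37. The aligner, the counter and the strand it used are not given in the sources used here. The deposited files hold the authors' raw read counts per Ensembl gene, without normalization.

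Libraries were grouped by the cell line in the labels. Symbols were matched to identifiers for 140 of 141 listed genes, with *AES* matched through its current symbol *TLE5* and *PECAM1* unmatched. Genes were filtered with filterByExpr of edgeR 4.0.16 (minimum count 10, minimum total 15), which left 17143, scaled by TMM and compared by estimateDisp, glmQLFit and glmQLFTest in R 4.3.3. P-values were adjusted over all genes tested by the Benjamini and Hochberg method with a threshold of 0.05. Standard errors were derived from the fold change and the test's F. The study itself used limma voom, which was kept as an alternative. TPM were computed with merged exon lengths of the GENCODE v44 annotation mapped to GRCh37, which held 87.4% of the identifiers and is later than the annotation the counts were made on. Steps were checked on simulated data.

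The named genes are all members, every called gene of each pathway list, its tested gene with the smallest p and its gene with the highest TPM, with *CDH1* and *CTNNB1* as context. Members and lists were chosen with earlier results of these data known. Alternatives were DESeq2 1.42.0, limma 3.58.1 voom with and without TMM factors, RLE factors, library totals only, no filter, at least 10 counts in every library, the mitochondrial genes left out, each library left out in turn, and coding length for TPM. Coding length for the TCF/LEF shares was chosen after seeing the data. Libraries of a line differed by more than counting noise. The chi-square per gene between a pair of libraries was 9.16 within FLO-1LM and 4.37 within parental cells. Between the lines it was 10.6 to 13.4. None was therefore a repeat deposit of another, and each was entered as a separate library. This does not tell separate cultures from separate preparations of 1 RNA.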

Additional observations from a re-analysis of the deposited data

How the results depend on the processing

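The count of members called was 0 in all 12 alternatives, whose lowest adjusted p for a member was 0.188. In 79 of 84 repeats a member's log2 fold change kept its direction and its side of the threshold. The 5 reversals came from leaving out 1 library and none was called: *ZNRF3* became 0.012 without FLO-1LM replicate 1 (range over the 4 libraries −0.088 to 0.012), *TCF7* 0.085 (−0.27 to 0.085), *TCF7L2* 0.015 (−0.25 to 0.015) and *NKD1* −0.30 (−0.30 to 0.93) without FLO-1LM replicate 2, and *TCF7* 0.0010 without FLO-1 parental replicate 1. Genes called over the whole table were 382, became 577 with no low-count filter, where more genes were tested, and ran from 97 to 1095 when 1 library was left out, where the lone library of a line was assumed to vary like the others. Calls among the other pathway genes were 4, became 2 with DESeq2, and ran from 0 (without FLO-1 parental replicate 1) to 8 (without FLO-1LM replicate 1). The cause of these shifts was not tested. The scalings moved the median of all genes to between −0.033 and 0.0034. With coding length 6 of 10 genes kept their rank, and the *TCF7L1* share became 32.65% in FLO-1LM and 36.998% in parental cells. No paired analysis was possible because the labels give the libraries no replicate numbers that the lines share, and the numbers 1 and 2 used here follow the order of deposit and only name a library. *LEF1*, *SP5* and *LGR5*, with 24 counts between them, are too shallow for any comparison, *RNF43* and *NKD1* are loosely bounded, and *AXIN2* ran from −0.50 to −0.049 when 1 library was left out.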
